A study of Homo sapiens with 30 samples.

Results

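The regions described here are stretches of chromosomes 1 to 22 that were called open in undifferentiated human pluripotent stem cells and at no later step of a differentiation towards brain. They were chosen by the presence of peaks: peaks of all 10 deposited lists that shared 1 bp or more were joined into merged regions, and a list counted as open at a merged region that held 1 of its peaks. Of 476170 merged regions, 192966 were open in the pluripotent cells and 21899 were open there and in none of the other 9 lists. These 21899 regions made up 4.60% of all merged regions and 11.3% of those open in the pluripotent cells. Since peak presence selected the regions, their number, their width and their absence from other lists are given as descriptions.

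All cells were wild-type H1, an established human embryonic stem cell line, and each group had 3 biological replicate libraries of 50000 cells, 30 in all. Open chromatin was measured with OmniATAC-seq, in which a transposase cuts and tags accessible DNA in nuclei. The pluripotent cells (hPSC) were collected on day 0 from mTeSR Plus medium. Definitive ectoderm (DE) was collected on day 1, after exposure to A8301, Trametinib, C59 and LDN193189, which inhibit activin and NODAL receptors, MEK, WNT secretion and BMP receptors, respectively. On day 2, anterior neural ectoderm (aNE) had received A8301, LDN193189, C59 and Thiazovivin, and posterior neural ectoderm (pNE) had received A8301, LDN193189, TTNPB, FGF2, XAV939 and Thiazovivin. On day 4, each of these had been carried into telencephalon, midbrain or hindbrain medium, which gave aNE_T, aNE_M, aNE_H, pNE_T, pNE_M and pNE_H. One list of peak positions per group was available, with no score, height or value per library. No difference between lists could therefore be set against replicate error, no test was made, and every interval below is a 95% Wilson interval that covers counting error only. A region missing from a list had no called peak there, which does not show that its chromatin was closed.

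Pluripotent cells hold their state through a small set of transcription factors, POU5F1, SOX2 and NANOG among them, that bind enhancers and promoters across the genome together. Activin, NODAL and FGF signals sustain this state in human cells, and it is lost within days once those signals are blocked. Promoters rich in the dinucleotide CG (CpG) belong mostly to genes used in many cell types, while CpG-poor promoters belong mostly to genes used in few. A group of germ cell genes with CpG-rich promoters is an exception to that pattern, since most adult tissues keep these genes silent.

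Some of the regions touched windows around gene starts, and bases before such starts are shown first because the comparison of CpG content further on rests on such starts. The first is an internal start of CRIPTO (TDGF1), the NODAL co-receptor and a marker of pluripotent cells, which lies inside the gene and downstream of its first annotated start. The next 6 are germ cell genes whose start had a region open in hPSC only, a CpG-rich promoter and no peak of any other list within 1 kb. SLC1A3, a glutamate transporter, is shown as a CpG-poor start from the same set, and DAND5, a secreted antagonist of NODAL, as a start that was open in DE only. Each sequence is the 250 bases before the annotated start, 5′ to 3′ on the strand of the gene, from RefSeq (GRCh38.p14), with each CG in capitals. It is not the sequence of the open region itself: at ADAD1 the region lay wholly past the start and shares no base with the stretch printed.
CRIPTO, chr3:46577538-46577787, + strand: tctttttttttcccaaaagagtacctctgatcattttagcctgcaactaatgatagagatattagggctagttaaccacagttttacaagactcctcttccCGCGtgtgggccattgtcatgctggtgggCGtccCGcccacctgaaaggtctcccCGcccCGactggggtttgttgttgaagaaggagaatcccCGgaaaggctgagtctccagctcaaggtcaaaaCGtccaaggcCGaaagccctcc
MOV10L1, chr22:50089756-50090005, + strand: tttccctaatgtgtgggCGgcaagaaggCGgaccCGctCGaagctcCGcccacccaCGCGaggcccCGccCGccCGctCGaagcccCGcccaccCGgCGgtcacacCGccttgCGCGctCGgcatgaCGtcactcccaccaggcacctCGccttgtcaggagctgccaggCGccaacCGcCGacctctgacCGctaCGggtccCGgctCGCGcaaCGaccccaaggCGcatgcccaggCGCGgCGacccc
DDX43, chr6:73394578-73394827, + strand: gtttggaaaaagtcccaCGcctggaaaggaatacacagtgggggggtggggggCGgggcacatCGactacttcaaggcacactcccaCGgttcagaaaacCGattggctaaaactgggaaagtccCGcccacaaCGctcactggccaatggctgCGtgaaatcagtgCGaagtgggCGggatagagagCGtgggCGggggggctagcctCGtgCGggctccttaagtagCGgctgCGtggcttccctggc
REC114, chr15:73442914-73443163, + strand: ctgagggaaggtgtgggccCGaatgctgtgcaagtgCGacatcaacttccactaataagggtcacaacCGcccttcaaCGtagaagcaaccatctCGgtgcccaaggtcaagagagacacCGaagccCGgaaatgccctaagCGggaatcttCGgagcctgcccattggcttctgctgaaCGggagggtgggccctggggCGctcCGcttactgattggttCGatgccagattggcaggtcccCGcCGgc
IHO1, chr3:49199248-49199497, + strand: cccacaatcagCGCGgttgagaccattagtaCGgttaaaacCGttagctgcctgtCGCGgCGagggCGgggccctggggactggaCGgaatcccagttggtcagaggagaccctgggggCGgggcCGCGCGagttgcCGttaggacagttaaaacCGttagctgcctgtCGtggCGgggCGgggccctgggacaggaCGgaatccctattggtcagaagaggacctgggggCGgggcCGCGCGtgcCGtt
ADAD1, chr4:122379268-122379517, + strand: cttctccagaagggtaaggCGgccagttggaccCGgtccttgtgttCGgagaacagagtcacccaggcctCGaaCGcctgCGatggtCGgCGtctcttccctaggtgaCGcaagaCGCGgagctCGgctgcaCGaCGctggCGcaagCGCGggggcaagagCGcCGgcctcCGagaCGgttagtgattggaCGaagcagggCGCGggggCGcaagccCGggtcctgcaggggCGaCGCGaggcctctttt
RBM46, chr4:154781022-154781271, + strand: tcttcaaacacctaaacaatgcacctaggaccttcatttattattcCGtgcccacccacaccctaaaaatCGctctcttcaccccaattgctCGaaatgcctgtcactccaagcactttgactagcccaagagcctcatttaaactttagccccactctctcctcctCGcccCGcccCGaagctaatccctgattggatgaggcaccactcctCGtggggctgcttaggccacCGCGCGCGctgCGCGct
SLC1A3, chr5:36596338-36596587, + strand: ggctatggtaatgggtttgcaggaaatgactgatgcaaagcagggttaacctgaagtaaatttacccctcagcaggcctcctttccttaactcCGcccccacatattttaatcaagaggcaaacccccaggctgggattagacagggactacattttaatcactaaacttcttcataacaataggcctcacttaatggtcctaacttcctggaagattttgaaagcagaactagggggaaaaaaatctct
DAND5, chr19:12969326-12969575, + strand: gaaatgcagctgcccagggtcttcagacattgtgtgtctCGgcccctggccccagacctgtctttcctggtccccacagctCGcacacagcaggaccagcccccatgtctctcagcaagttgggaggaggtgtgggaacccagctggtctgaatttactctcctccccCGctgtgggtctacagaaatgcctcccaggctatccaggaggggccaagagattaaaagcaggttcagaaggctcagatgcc

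The capitals stand densely in the germ cell genes printed, which were picked with a CpG-rich promoter. In 250 bases, MOV10L1 had 33 CG, ADAD1 29, IHO1 24, DDX43 16, REC114 15 and RBM46 13. CRIPTO had 9, DAND5 had 3 and SLC1A3 had 1. The printed stretch of MOV10L1, which encodes an RNA helicase needed to make piRNAs, had a GC content of 73.2%, against 43.2% in SLC1A3. SLC1A3 was picked as a CpG-poor start, so these contrasts follow from the choice of genes. GTSF1 and TERB2, germ cell genes with a CpG-poor start open in hPSC only, are not printed.

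At gene starts, the regions open in hPSC only included CpG-rich promoters at a higher share than those open in DE only or in pNE_H only, while the intervals of hPSC and of aNE, pNE and aNE_H overlapped. A promoter window ran from 250 bases before to 50 bases after an annotated start, and it was called CpG-rich where the observed CG count was over 0.6 of that expected from its C and G content. The 217 regions that touched such a window touched 233 windows of 220 genes, of which 127 were protein-coding and 93 were long noncoding RNA (lncRNA) genes. Those 127 genes were 0.841% of the 15100 protein-coding genes with a window. A start counted as open in hPSC only where an hPSC-only region touched its window. A region of another list also touched 18 of the 233 windows. Of the 233 windows, 70 were CpG-rich, a share of 30.0% (interval 24.5 to 36.2). In the DE-only class the count was 4 of 127 windows, or 3.15% (1.23 to 7.82), and in the pNE_H-only class, the largest, it was 13 of 301, or 4.32% (2.54 to 7.25). The classes of aNE and pNE were small and their intervals wide, with 4 of 23 windows (17.4%, 6.98 to 37.1) and 5 of 31 (16.1%, 7.09 to 32.6). The 6 day 4 lists lay between 3.53% in pNE_T and 12.8% in aNE_H. Windows that were open in both hPSC and DE and nowhere else stood between, at 26 of 143 or 18.2% (12.7 to 25.3). The hPSC interval did not overlap those of 6 of the 9 other lists and overlapped those of aNE, pNE and aNE_H. Over protein-coding windows alone, the share was 33.8% (26.3 to 42.2) for hPSC, close to the 33.3% (4 of 12 windows, 13.8 to 60.9) for pNE, and 2.90% (0.799 to 9.97) for DE.

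**Figure D1:**
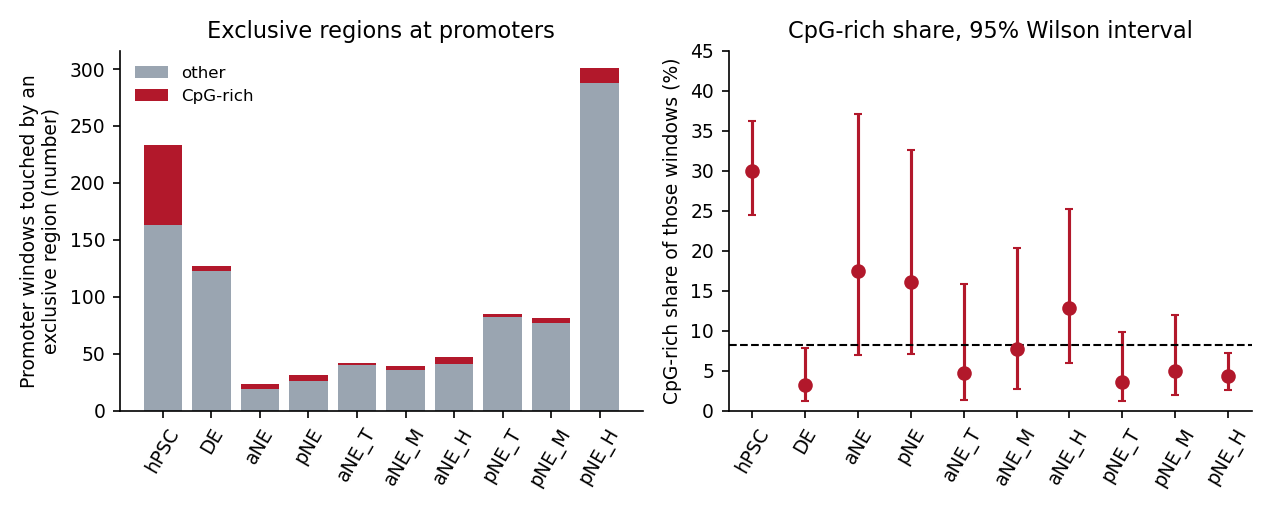
Left, number of promoter windows touched by a region open in 1 list only, for each of the 10 lists, with the CpG-rich windows in red. Right, the CpG-rich share of those windows in percent, with 95% Wilson intervals (counting error only) and a dashed line at the 8.15% of windows with no region in any list. The hPSC point at 30.0% has the highest value and its interval overlaps those of aNE, pNE and aNE_H.

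Most CpG-rich promoters were open throughout the differentiation, and the hPSC-only windows did not reach their CpG content. Among windows touched by a region open in all 10 lists 78.7% were CpG-rich, and over all 33725 windows the share was 49.0%. Windows with no region in any list were CpG-rich in 8.15% of cases. The median ratio of observed to expected CG was 0.347 in the hPSC-only windows, 0.211 in the DE-only windows and 0.816 in the windows open in all 10 lists. Under an equal number of peaks per list, taken by width, the CpG-rich share was 29.6% (24.2 to 35.6) for hPSC, 23.4% (13.6 to 37.2) for aNE and 4.71% for DE. With no peak of another list allowed within 1 kb of the start it was 33.6% (42 of 125 windows) for hPSC, 22.2% (2 of 9) for aNE and 0 of 65 for DE (upper bound 5.58%). The hPSC and aNE intervals overlapped in both settings. Peaks at the CpG-rich windows had a median width of 206 bp, and those at the other 163 windows 171 bp.

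Germ cell genes stood out by name among the CpG-rich starts, and 4 lists of such genes were therefore written after the names had been seen. Most of the 43 protein-coding genes with a CpG-rich start open in hPSC only were in none of these lists, COL7A1, COL11A2 and CXXC5 among them. Another list had a peak 193, 289 and 181 bases from the regions at these 3 starts, respectively. Of 83 listed genes 71 had a promoter window, and 11 of those had a region open in hPSC only at a start, which is 15.5% beside the 0.841% of all protein-coding genes. Because the lists were made with the names in view, that difference is a description of what was noticed. Of the same 71 genes, 0 had a start open in DE only, 1 had a start open in pNE_H only, and 0 did so for the other 7 lists. Over all 15100 protein-coding genes with a window, such starts were also few, 68 for DE, 120 for pNE_H and 10 to 30 for the other 7. The lists were written from names seen in the hPSC-only set, so the lead of hPSC follows from that choice. The oocyte and early embryo list had 0 of 11 genes with an hPSC-only start. Over the 4 lists, 24 of the 71 genes had no start open in hPSC, and 30 had a start open in all 10 lists.

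The piRNA pathway, which silences transposons in germ cells, had 5 of 21 genes with an hPSC-only start. More of them, 9 of the 21, had no start open in hPSC, PIWIL1, DDX4, ASZ1 and TDRD9 among them. MOV10L1 had a region of 544 bp at chr22:50089823-50090366 that spanned its start, with the nearest peak of any other list 4003 bases away. DDX43, a DEAD-box RNA helicase found in testis and tumours, had one of 660 bp at chr6:73394674-73395333, 4278 bases from the nearest peak of another list. MAEL, the maelstrom protein of the nuage, had a region of 281 bp at 1 of its 2 windows, and its other window was open in other lists. PNLDC1, the exonuclease that trims piRNA ends, had 138 bp with another list's peak 377 bases away, and GTSF1, a zinc finger cofactor of PIWI proteins, had 157 bp with one 578 bases away. GTSF1 was the CpG-poor member of these 5, with a ratio of 0.349.

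Meiosis genes had 3 of 30 with an hPSC-only start and 6 with no start open in hPSC, SYCP3 and STRA8 among the latter. REC114 and IHO1, both needed to form meiotic DNA double-strand breaks, had regions of 288 bp at chr15:73443058-73443345 and 469 bp at chr3:49199345-49199813. The nearest peaks of other lists lay 4099 and 7312 bases away. TERB2, which ties telomeres to the nuclear envelope in meiosis, had 222 bp at a CpG-poor start with another list's peak 275 bases away. Most of this list was open in every list, with 18 of the 30 genes at a start open in all 10, among them DMC1, SPO11, SYCP2 and REC8.

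Germ cell RNA-binding proteins had 3 of 9 genes with an hPSC-only start, while DAZL and TEX101 had no start open in any list. RBM46 had hPSC-only regions at both of its annotated starts, of 194 bp at chr4:154781141-154781334 and 548 bp at chr4:154781531-154782078. The second of these also touched the start of the lncRNA LOC105377500 on the opposite strand. ADAD1, a testis protein with a double-stranded RNA-binding domain, had 165 bp at chr4:122379557-122379721, 3788 bases from a peak of another list. BOLL, a relative of DAZL, had 131 bp at 1 of its 2 windows, and its other window was open in other lists. Of the 11 germ cell genes 9 had no window touched by a region of another list, and over all 127 protein-coding genes 87 had none.

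Further CpG-rich starts open in hPSC only, named as examples after their values were seen, come from the 43 protein-coding genes with such a start. SLC25A31, the mitochondrial ADP/ATP carrier of the testis, had a region of 325 bp, ZPBP2, a sperm zona pellucida-binding protein, had 448 bp, and SHCBP1L, a spindle protein of male meiosis, had 445 bp. TUBA3D, a testis alpha-tubulin, had 113 bp and RBM44 had 545 bp. The set also held AIRE, the autoimmune regulator (203 bp), NR2E1, the neural stem cell nuclear receptor also called TLX (202 bp), and starts of the protocadherin gamma cluster, PCDHGB5 (371 bp), PCDHGA9 (127 bp) and PCDHGA11 (235 bp). CpG-rich was set by the ratio alone, so few CG could pass. The PCDHGA9 window had 7 CG at a GC content of 37.7%, and the PCDHGA11 window had 12 at 44.3%. Regions at the divergent starts of DMGDH and BHMT2, both of betaine metabolism, were 1 shared region of 274 bp. Another list had a peak 438 bases from the NR2E1 region and 361 bases from the shared DMGDH and BHMT2 region. The other starts named in this paragraph had no peak of another list within 1 kb. Of the 70 CpG-rich windows, 42 had none within 1 kb.

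The 5 widest regions at a promoter window were of mixed CpG content. They were at the lncRNA LOC124901786 (681 bp at chr7:155209932-155210612), DDX43, SLC1A3 (623 bp at chr5:36596280-36596902), GMFG, a regulator of actin branching (555 bp at chr19:39335579-39336133), and LOC105377500. The SLC1A3 window had 1 CG in 300 bases, a ratio of 0.0722, and the nearest peak of another list was 4953 bases away. At CRIPTO, the region of 193 bp at chr3:46577573-46577765 was centred 119 bases before the internal start shown above and 3.10 kb past the first start, and another list had a peak 291 bases away.

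Pluripotency genes had a larger share of their hPSC-open regions in the hPSC-only class than the genome did. Peak presence defined this class, and the gene lists were chosen with earlier results of these data known. The difference is therefore a description and not a test. Each gene was given a window that added 50 kb on both sides, and such a window held at least 1 hPSC-only region for 71.0% of all 19122 protein-coding genes, so that having one is common. Of 22 pluripotency genes 21 had one, KLF4 being the exception. The number of regions differed more: the median was 3 per gene in this list and 1 over all genes. Of the 360 hPSC-open regions in the 22 windows, counted once where windows overlap, 63 were hPSC-only, which is 17.5% (13.9 to 21.8) beside 11.3% over the genome. For DE, the same windows held 31 DE-only regions of 333, or 9.31%, beside 11.7% over the genome. The pluripotency share was 24.4% where a list had to cover 50% of a region to be open (17.5% over the genome) and 12.7% where peaks within 500 bp were merged (8.51% over the genome).

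**Figure D2:**
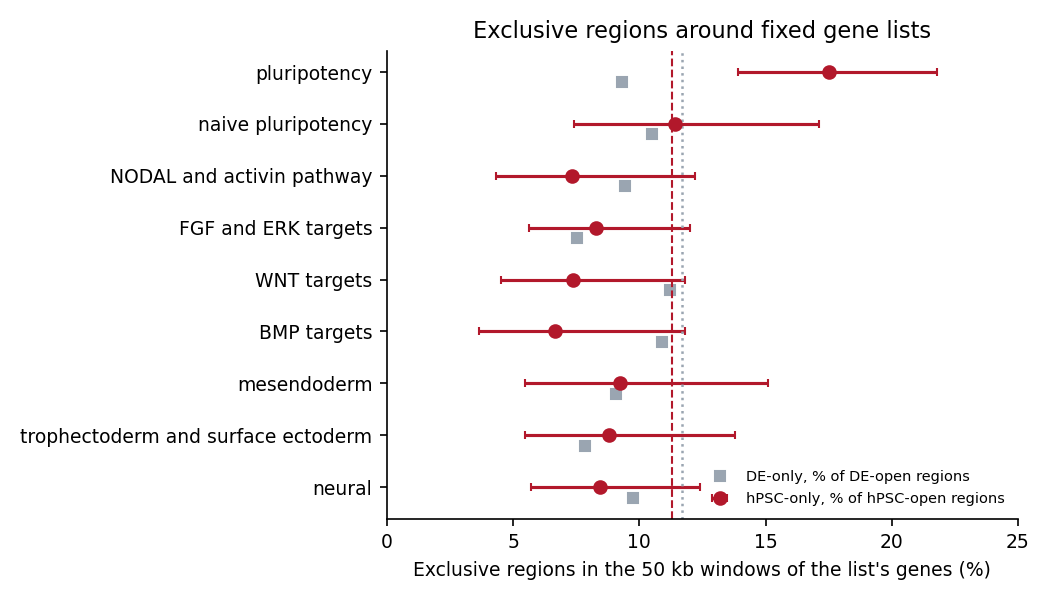
Share of the open regions in the 50 kb windows of 9 gene lists that were exclusive to 1 list, in percent, for hPSC (red points, with 95% Wilson intervals for counting error) and DE (grey squares). The dashed red and dotted grey lines mark the genome's 11.3% for hPSC and 11.7% for DE. The interval of the pluripotency list, at 17.5%, lies above the red line. This is a description, since the lists were chosen with earlier results of these data known.

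TERF1, which encodes a telomere-binding protein and lies next to SBSPON on chromosome 8, had the most hPSC-only regions of the list, 9 of 25 open in its window. By list, the window held 25 open regions in hPSC, 15 in DE, 9 in aNE, 12 in pNE, 9 in aNE_T, 10 in aNE_M, 10 in aNE_H, 8 in pNE_T, 10 in pNE_M and 12 in pNE_H. The 9 hPSC-only regions count towards the hPSC value and by rule towards no other, so the order of hPSC against the rest is a description. A pair of its hPSC-only regions, 417 bp inside the gene at chr8:73019453-73019869 and 735 bp past its end at chr8:73051074-73051808, were 5962 and 8906 bases from the nearest peak of another list.

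LIN28B, an RNA-binding protein that blocks let-7 maturation, had 7 of 28, and NANOG, a core pluripotency factor, had 6 of 19. All 7 of the LIN28B regions lay downstream of its start by 50.8 to 174 kb, and 5 were inside the gene. The LIN28B window held as many open regions in DE as in hPSC (28 each) and 41 in pNE_H. At NANOG the counts were 19 in hPSC, 11 in DE, 8 in aNE, 11 in pNE, and from 6 in pNE_T to 16 in pNE_H on day 4. One NANOG region lay inside the gene at chr12:7798116-7798361, 8.80 kb from the start. Another, at chr12:7752371-7752541, was 36.9 kb upstream of NANOG and within the window of its neighbour DPPA3. The other 4 were 15.8 to 56.7 kb downstream.

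Genes at 4 hPSC-only regions were DNMT3B, a de novo DNA methyltransferase (4 of 27), DPPA5 (4 of 12), L1TD1, an RNA-binding protein of pluripotent cells (4 of 16), and USP44, a deubiquitinase (4 of 18). A region of 567 bp inside L1TD1, at chr1:62211688-62212254, was the widest of its 4. Of the 4 in the DPPA5 window, the widest was the one on the start of DDX43, 40.7 kb upstream of DPPA5, so these 2 genes share it. At USP44 a region of 414 bp inside the gene, at chr12:95522749-95523162, was 6328 bases from the nearest peak of another list.

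CRIPTO (3 of 20), DPPA2 (3 of 14), DPPA4 (3 of 15), FGF4 (3 of 16), PRDM14 (3 of 16) and ZSCAN10 (3 of 25) followed. DPPA2 and DPPA4 are neighbours that shared all 3 of theirs. PRDM14, a transcriptional repressor of the germline and the pluripotent state, had 1 of 557 bp at chr8:70026317-70026873, 5772 bases from any peak of another list. GDF3 (2 of 12), LIN28A (2 of 20) and ZFP42 (2 of 14) had 2 each. The 1 of 2 near LIN28A that lay inside the gene, at chr1:26411170-26411449, was 2 bases from a peak of another list, so it is a narrow call on the boundary of the rule.

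The core factors POU5F1 and SOX2 had 1 hPSC-only region each. For POU5F1 it was 266 bp at chr6:31180662-31180927, of 13 open, and for SOX2 it was 125 bp at chr3:181685571-181685695, 26.3 kb upstream of the start, of 19 open. DPPA3 (1 of 14), SALL4 (1 of 11) and VRTN (1 of 24) also had 1, and KLF4 had 0 of 9. At POU5F1, 3 further regions were open in hPSC and DE and in no other list, and DE had 15 open regions in that window against 13 in hPSC and 4 to 8 in the other 8 lists. At SOX2, which neural cells also use, 11 of the 19 hPSC-open regions were open in all 10 lists.

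**Figure D3:**
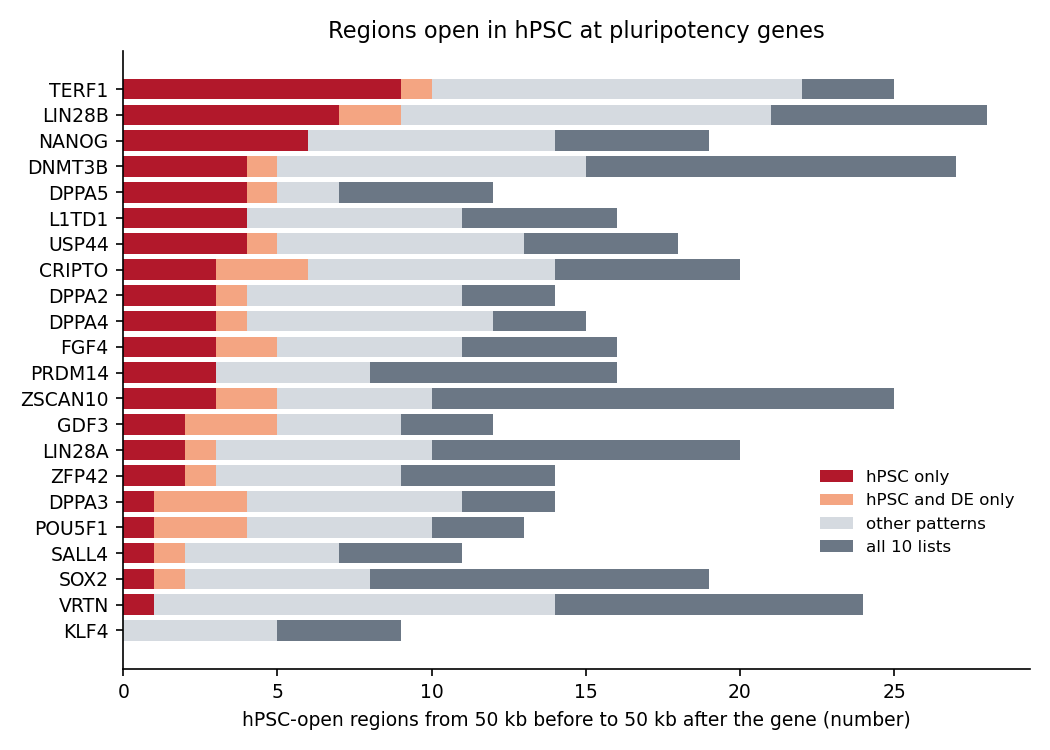
Number of regions open in hPSC in the window of each of 22 pluripotency genes (the gene with 50 kb added on both sides), split by where else they were open. TERF1 has the longest red bar at 9 of 25 regions, and KLF4 has none.

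The 9 genes of the naive state, which precedes the state H1 cells are usually kept in, had 19 hPSC-only of 167 hPSC-open regions, 11.4% (7.41 to 17.1), close to the genome's 11.3%. KLF17 had 5 of 26, ARGFX 4 of 16, DNMT3L 4 of 22, ESRRB 2 of 41, TBX3 2 of 20, 1 of 5 at NLRP7 and 1 of 14 at SUSD2 in their windows, and KLF5 and TFCP2L1 had 0. The DNMT3L window reached the region 255 bases before the start of AIRE.

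The targets and components of the signals that the day 1 medium blocks did not share the pluripotency genes' higher share. NODAL and activin pathway genes had 13 of 177 hPSC-open regions in the hPSC-only class, 7.34% (4.34 to 12.2), with 8 of 12 genes at 1 or more. SKIL and SMAD7, inhibitors of SMAD signalling, had 3 each, the antagonist LEFTY2 had 2, and the ligand NODAL and the cofactor FOXH1 had 1 each. FGF and ERK targets had 24 of 290, 8.28% (5.62 to 12.0), with 13 of 17 genes at 1 or more. Among them the ERK inhibitors SPRY4 (4), SPRED1 (3) and SPRED2 (3) and the immediate early gene EGR1 (3) had the most, followed by FGFR1 and PHLDA1 with 2 each.

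WNT targets had 15 of 203, 7.39% (4.53 to 11.8), with ZNRF3 (4) and RNF43 (3), which remove WNT receptors, and AXIN2, NKD1 and NOTUM with 2 each. BMP targets had 10 of 150, 6.67% (3.66 to 11.8), all at 3 of 9 genes, MSX1 (4), ID3 (3) and SMAD6 (3). Intervals of the NODAL, FGF, WNT and BMP lists included the genome's 11.3%, so a lower share was not resolved by counting error alone.

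Lists for other lineages lay in the same range. Mesendoderm genes had 13 of 141, 9.22% (5.47 to 15.1), with 3 at FOXA2 and 2 each at GATA4, GATA6, MIXL1 and TBXT. Trophectoderm and surface ectoderm genes had 16 of 182, 8.79% (5.48 to 13.8), with 3 each at KRT7 and KRT8. Neural genes had 23 of 272, 8.46% (5.70 to 12.4), with 4 at OTX2 and 3 each at LHX5, SIX3 and SOX1. OTX2, a factor of both pluripotent cells and anterior neural ectoderm, thus had 4 of its 19 hPSC-open regions in the hPSC-only class.

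JARID2, a subunit of the Polycomb repressive complex PRC2 that is abundant in pluripotent cells, had more hPSC-only regions than any other gene when each region was given to the nearest gene end, 32 of 128. The gene spans chr6:15246069-15522042, 276 kb, and its window, with 50 kb added on both sides, held 30 hPSC-only regions, 22 of them inside the gene. In the same window the number of regions open in 1 list only was 10 for DE, 1 for aNE, 0 for pNE, 2 for aNE_T, 0 for aNE_M, 2 for aNE_H, 3 for pNE_T, 5 for pNE_M and 12 for pNE_H. JARID2 was singled out for its hPSC count, so the lead of hPSC here follows from that choice. Other lists had their own leading genes by nearest end, RBFOX1 with 44 DE-only regions in DE and PCDH9 in pNE_H among them. All open regions in the window numbered 82 in hPSC, 71 in DE, 47 in aNE, 49 in pNE, 60 in aNE_T, 59 in aNE_M, 51 in aNE_H, 49 in pNE_T, 58 in pNE_M and 79 in pNE_H. Of the 82 in hPSC, 15 were open in all 10 lists and 4 in hPSC and DE only. The 30 hPSC-only regions had a median width of 186 bp and a maximum of 450 bp.

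**Figure D4:**
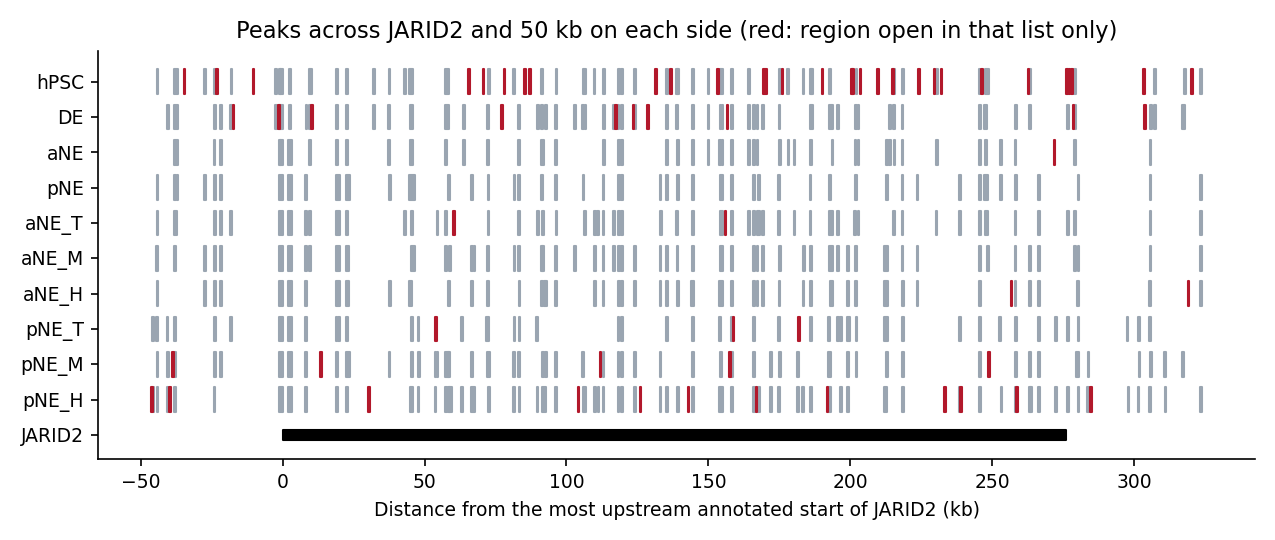
Peaks of each of the 10 lists across JARID2 and 50 kb on each side, by distance in kb from its most upstream annotated start, with the gene as a black bar. Marks are drawn at a minimum width so that narrow peaks can be seen, and red marks are peaks of regions open in that list only. The hPSC row holds 30 red regions, the DE row 10 and the pNE_H row 12.

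By the same nearest-end count, TENM3, a teneurin, had 28, and 24 each were nearest to FOXN3, a forkhead repressor, PTPRN2, a receptor-type phosphatase, and SDK1, a cell adhesion protein. CAMTA1 followed with 23, HDAC4, MYT1L, RBFOX1 and SHANK2 with 21, and CDH4, LOC124903233, RORA and VRK1 with 20. These genes ran from 46.6 kb (LOC124903233) to 2474 kb (RBFOX1) in length. RBFOX1 had 44 DE-only and 70 pNE_H-only regions by the same count, and TENM3 had 76 pNE_H-only. FOXN3 (463 kb) resembled JARID2 more, with 24 hPSC-only, 8 DE-only, 0 aNE-only, 3 pNE-only and 10 pNE_H-only.

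Ranked by share rather than number, the leading genes reported here were none of the pluripotency list. Over the 14306 genes with at least 10 hPSC-open regions in their window the median share was 9.09%. NSA2, a ribosome biogenesis factor, had 6 of 10 hPSC-only (60%), and NSUN6, an RNA methyltransferase, had 7 of 13 (53.8%). KCNMB3, PPIG, RLF and TOGARAM1 each had 6 of 11 (54.5%), LOC124902053 had 8 of 15 (53.3%), SPATA45 had 6 of 12 (50.0%), and SBSPON, beside TERF1, had 9 of 18 (50.0%). The TOGARAM1 and KCNMB3 shares rest on few regions, as do the others, and picking the highest of 14306 favours extremes.

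By windows of 100 kb, the densest was chr6:15400001-15500000 inside JARID2, with 13 hPSC-only of 27 hPSC-open regions. The window before it, chr6:15300001-15400000, held 8 of 25. Windows with 8 also lay at chr7:138400001-138500000 (8 of 15), which holds TRIM24, a chromatin reader and cofactor, at chr8:73000001-73100000 (8 of 18) with TERF1 and SBSPON, and at chr9:113000001-113100000 (8 of 19) with the zinc finger genes ZNF883 and ZFP37. The chromosome 9 window, picked for its hPSC count, had 0 exclusive regions in each of the other 9 lists. Over the genome, windows with an exclusive region numbered from 2247 for aNE to 20975 for pNE_H. How many windows had 0 in all 9 is not given here. The regions were otherwise spread out: 13119 windows held at least 1, with a median of 1 in those, and the largest number in any window for another list was 13, in pNE_H. By chromosome, the hPSC-only share of hPSC-open regions ran from 10.1% on chromosome 11 to 12.4% on chromosome 7.

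The widest of the 21899 regions lay mostly away from gene ends, as did the whole class, with 10.00% within 1 kb of one. The first, 1489 bp at chr9:137150302-137151790, was inside GRIN1, an NMDA receptor subunit, and 3492 bases from any peak of another list. The second, 1302 bp at chr4:92256071-92257372, was 5126 bases from the end of LNCPRESS2, a lncRNA of pluripotent cells. The third, 1275 bp at chr6:21551974-21553248, was between genes, with SOX4 the nearest protein-coding gene. Peaks of other lists lay closer to these, 721 bases from the second region and 456 bases from the third. The fourth, 1217 bp at chr5:138469837-138471053, was 534 bases from an end of EGR1, which is induced by ERK. Of the next 6, from 1171 to 1055 bp, those on chromosomes 13, 3, 11 and 2 were outside genes, 1 lay inside CSPP1, a centrosome and cilium protein, and 1 lay inside the lncRNA ADAMTSL4-AS1.

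Most of the regions were narrow. Each held 1 hPSC peak, with a median width of 154 bp (quartiles 124 and 207), against 289 bp for the other hPSC peaks. DE-only peaks had a median of 157 bp, so narrowness was shared with another exclusive class. By width, 10215 (46.6%) were of 100 to 149 bp, 5594 (25.5%) of 150 to 199 bp, 4160 (19.0%) of 200 to 299 bp, 1604 (7.32%) of 300 to 499 bp and 326 (1.49%) of 500 bp or more. When just the wider 50% of each list was used, 10502 regions were open in hPSC only, with a median width of 332 bp.

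Many regions lay close to a peak of another list without overlapping it. The median gap was 1211 bp (1289 bp for DE-only regions), 29.5% had a gap under 500 bp and 45.1% a gap under 1 kb. Of all 21899, 948 were under 100 bases from a peak of another list, 108 under 10 bases and 9 touched one with no base between. Just inside the rule, those 108 had a median width of 148 bp. Just outside it, 81 regions were open in hPSC and 1 other list with an overlap of 10 bases or fewer, and their merged median width was 307 bp. Of the hPSC-open regions 171067 were shared, 18791 (9.74%) with 1 other list, of which 13138 were shared with DE, and 78808 (40.8%) with all 9.

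Regions open in hPSC only lay within 1 kb of a gene end in 10.00% of cases (9.61 to 10.4). The share was 7.89% (7.57 to 8.23) for DE-only, 9.05% (7.97 to 10.3) for aNE-only and 8.16% (7.35 to 9.05) for pNE-only regions, and 6.38 to 7.91% for the 6 day 4 lists. It was 17.9% for hPSC regions shared with another list, 27.1% for those open in all 10 lists and 11.2% for all merged regions. Within 1 kb of an annotated start the shares were 3.29% for hPSC-only, 2.35% for DE-only, 2.15% for pNE_H-only and 5.49% for all regions, leaving out chromosome 8. Of the hPSC-only regions 66.1% lay inside a gene of any kind and 53.3% inside a protein-coding gene, with 25.4% within 10 kb of another of the same class (26.5% for DE-only).

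**Figure D5:**
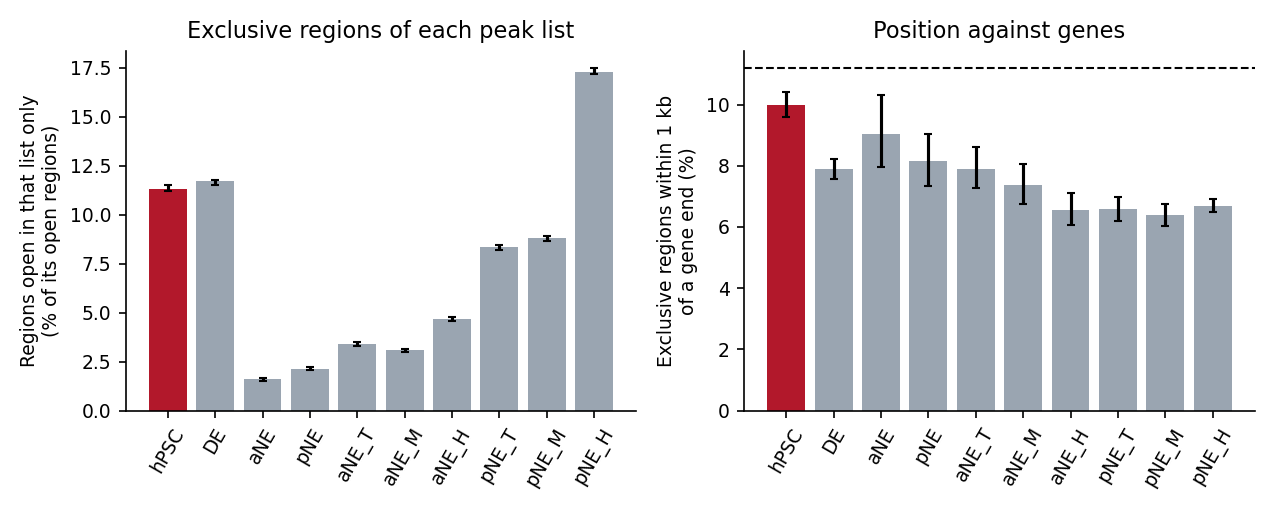
Left, regions open in 1 list only as a percent of that list's open regions. Right, percent of those regions within 1 kb of a gene end, with a dashed line at the 11.2% of all merged regions. Bars start at 0 and error bars are 95% Wilson intervals (counting error only), with hPSC in red at 11.3% and 10.00%.

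Against the other lists, hPSC had the third highest exclusive share, 11.3% (11.2 to 11.5), after pNE_H with 17.3% and DE with 11.7% (11.5 to 11.8). The day 2 lists had the lowest, 1.60% in aNE and 2.13% in pNE, and the other day 4 lists lay between 3.08% in aNE_M and 8.80% in pNE_M. Lists differed in length, from 162041 peaks in aNE to 302355 in pNE_H, with 205831 in hPSC, and with all lists at the length of the shortest, by width, the hPSC share was 12.4%. Lists also differed in how many others were near to them in protocol: hPSC is the day 0 list, with no other list from the same day. The effect of this on the exclusive share was not tested.

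Short motifs were searched on both strands of the 300 bases of each promoter window, since no genome sequence was used here for regions outside promoters. A match is a description of letters, and matches depend on base composition, which differed between classes. The octamer ATGCAAAT, the motif of POU factors, was in 2 of 233 hPSC-only windows (0.858%), in 1.57% of DE-only windows, in 1.75% of all windows and in 5.59% of windows open in hPSC and DE only. The POU-SOX composite, ATTNGCAT directly followed by NACAATG with up to 2 mismatches, was in 1 window (0.429%) beside 0.531% of all windows. The SOX motif ACAATG, which the composite contains, was in 10.7% beside 10.8%.

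The OTX motif TAATCC was in 3.00% of the hPSC-only windows (1.46 to 6.07), in 12.6% of the DE-only windows (7.91 to 19.5) and in 6.37% of all windows. AP-1 (TGANTCA) was in 7.73% beside 15% in DE-only and 7.67% in all, TEAD (GGAATG) in 12.9% beside 23.6% and 14%, and the letters bound by GATA factors, AGATAA, in 8.58% beside 15% and 10.4%. The general E-box CANNTG was in 76.0%, 86.6% and 68.6%, and its CpG-containing form CACGTG, which is one of its matches, in 9.01%, 6.30% and 7.18%. The CTCF core, CCNNNAG directly followed by NGGGCGC with up to 1 mismatch, was in 20 hPSC-only windows (8.58%, 5.63 to 12.9), in 1 DE-only window (0.787%, 0.139 to 4.33) and in 8.73% of all. The E2F motif GGCGGGA was in 10.3%, 6.30% and 15.4%, and the cAMP response element TGACGTCA in 2.15%, 0% (upper bound 2.94%) and 1.87%. CACGTG, the E2F motif and the cAMP response element were added after the sequences had been seen. Apart from the POU-SOX composite, the motifs without CG had lower values in hPSC-only than in DE-only windows, and those with CG had higher values. The intervals of the 2 classes did not overlap for the OTX motif and for the CTCF core.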

How the data were processed

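The 30 libraries were sequenced on a NovaSeq instrument, per the labels' protocols. The authors deposited 1 list of peaks per group, with 3 columns (chromosome, start, end) and no other value. The submitters' processing notes name FastQC, Bowtie2, MACS2, bedtools, featureCounts, edgeR, deepTools and hg38, without versions or order. How replicates were combined, the calling threshold and the depth of each library are not given in the sources used here, and each can move the number of peaks in a list.

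Peaks on chromosomes 1 to 22 were merged in Python 3.11.15 with numpy 2.4.6 and pandas 2.3.3, and intervals were computed with scipy 1.17.1. The merging code was tested on simulated lists. Genes (19122 protein-coding) came from a RefSeq table and 33725 promoter windows, with none on chromosome 8, from RefSeq, both GRCh38.p14. The annotation used here gives no exons, introns or UTRs. The motif search planned for whole regions was run on promoter windows. Merged regions are 1-based. Regions and lists were chosen with earlier results of these data known, and the 4 germ cell lists after names had been seen. Named genes were the up to 6 leading members of each list, all pluripotency genes, the 15 leading by nearest gene end, the 10 leading by share, the 10 widest regions, the 5 widest at promoters and the 5 densest windows; some of these are not reported here. No column belonged to an unmapped sample. Alternatives were the rule for openness, merging distance, list length, window size and distance.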

Additional observations from a re-analysis of the deposited data

Results flagged for a closer look

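Chromosome X was outside the regions described above. There, 873 of 6983 regions open in hPSC were open in no other list, a share of 12.5% (interval 11.7 to 13.3) beside 11.3% on chromosomes 1 to 22. Single chromosomes from 1 to 22 ran from 10.1% (chromosome 11) to 12.4% (chromosome 7), a value inside the interval of X. The X share is listed because it comes from data the report did not use.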

How the results depend on the processing

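Of 71 values under an alternative setting, 50 stayed within a factor of 1.5 (counts), their counting interval (shares) or 1 SD (width), and 21 moved. The pluripotency share was above the genome's share in the 6 alternatives that recomputed both. The CpG-rich share of hPSC was the highest of the 10 lists in the 3 alternatives run for all lists. The number of regions was 21899, and 10502 with the wider 50% of each list. The share of hPSC-open regions (11.3%) was 17.5% where peaks had to cover 50% of a region, 8.51% with merging within 500 bp, 10.6% with the wider 50%, 12.4% with lists at the length of the shortest, 9.81% with fixed 500 bp windows and 12.4% without pNE_H. The share within 1 kb of a gene end (10.00%) was 8.68%, 11.6%, 10.5% and 11.8% under merging, the wider 50%, equal length and fixed windows, and 29.6% at 5 kb. The median width (154 bp) was 332 bp with the wider 50%. Genes with a region within 50 kb (13577) numbered 8145 within 10 kb and 8947 by nearest end. Protein-coding genes with a region at a promoter (127) numbered 80 under merging and 70 with no peak of another list within 1 kb of the start, and germ cell genes (11) numbered 6 under the latter and 8 to 15 under the other alternatives. The pluripotency share (17.5%) was 24.4% under 50% coverage and 12.7% under merging. The POU-SOX share (0.429%) was 0% (upper bound 1.62%) with 1 mismatch allowed. The CpG-rich share (30.0%) stayed between 29.4% and 33.6%. The cause of each move was not tested, and settings added after seeing the data include all those for promoters, germ cell genes and the pluripotency share.

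No paired analysis was possible because each group has 1 list with no value per library, and leaving out a replicate was not possible for the same reason. A motif search of whole peaks and a median width under fixed windows were not run. Depth and replicate error are unknown for every value.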
